A study of Mus musculus with 49 samples.

Results

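Among 49 single cells of the mouse metanephric mesenchyme, 19 had Crym below 10 RPKM (38.8%, exact Clopper-Pearson 95% interval 25.2 to 53.8%), and these 19 cells are described here. They were divided at 1 RPKM of Foxd1: 13 cells at or above it are called Foxd1-positive (68.4% of the 19, interval 43.4 to 87.4%), and 6 cells below it are called Foxd1-negative. RPKM, the unit deposited by the authors, divides the reads of a gene by its length and by the read total mapped in the cell, and a gene counts as found in a cell at 1 RPKM or more. Crym and Foxd1 chose the cells, so their own values are a description. All other genes come from the same cells that were divided, and no difference given here is a test.

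The cells came from kidneys dissected at 11.5 days post coitum (Theiler stage 19). Every cell, Foxd1-positive, Foxd1-negative or Crym-high, shared the genotype Tg(Crym-EGFP)82Gsat, a transgene in which Crym control sequence drives the fluorescent reporter. The background was mixed and embryos of both sexes were used. The dissection followed the fluorescence around the ureteric bud and reached slightly past its edge. No embryo or litter is named, so all cells count as 1 sample, no p-values were computed, and intervals and SD cover counting error and the spread between cells, not between embryos.

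At this stage the ureteric bud has entered a mesenchyme that contains several lineages. Cap mesenchyme next to the bud, marked by Six2, Eya1 and Crym, gives rise to nephrons. Foxd1, a forkhead transcription factor, marks the progenitors of the cortical stroma, which later form interstitial cells, mural cells and mesangium. Stromal cells make retinoic acid through Aldh1a2, and this signal is known to keep Ret active in the bud tip. Endothelial precursors and the epithelium of the bud lie in the same tissue block.

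The 2 classes of cells were similar in depth. The Foxd1-positive cells had 4309 to 6330 genes at 1 RPKM or more (median 5235) and the Foxd1-negative cells 4126 to 5872 (median 4734), out of 13093 genes in the table. Read totals are not in the file. The relative number of reads, estimated from the steps between low values, was 0.749 to 1.27 times the median cell in Foxd1-positive and 0.764 to 1.35 times in Foxd1-negative cells. All cells share 1 run and lane name in the column headers. A value of 0 in 1 cell can be a missed transcript: the housekeeping gene Tbp was found in 6 of 13 Foxd1-positive and 2 of 6 Foxd1-negative cells, and Hprt in 11 and 5.

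Foxd1 (gene ID 15229, mm9 chr13:99124200-99126660) spanned a wide range among the cells chosen by it. From the highest down, it stood at 60.1 RPKM in cell 1, 58.5 in cell 10, 51.7 in cell 25, 50.1 in cell 17, 44.1 in cell 37, 30.6 in cell 2 and 30.3 in cell 43. It stood at 25.8 in cell 30, 15.6 in cell 11, 11.6 in cell 40, 10.8 in cell 18, 7.12 in cell 31 and 1.12 in cell 14. Cell 14 was thus just inside the boundary, well below the next cell. On the other side, cell 45 had 0.867 RPKM, cell 22 had 0.422, cell 39 had 0.390, cell 8 had 0.169, cell 27 had 0.163 and cell 6 had none. Crym (gene ID 12971, mm9 chr7:127329898-127345502), the gene for mu-crystallin, was 0.999 to 4.19 RPKM in the Foxd1-positive cells (median 1.88) and 1.91 to 4.92 in the Foxd1-negative cells (median 3.41). The highest of these, 4.92 RPKM in cell 27, lay far below the lowest of the 30 Crym-high cells, at 31.4 RPKM.

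Ebf1, Pdgfra, Col1a1 and Col1a2 were found in all 13 Foxd1-positive cells, while other stroma genes varied among them, and the 6 Foxd1-negative cells held 3 kinds of profile. Cells 22, 39 and 45 had Pdgfra and fibrillar collagen transcripts near the levels of the Foxd1-positive cells. Cells 6 and 8 had 12 and 13 of 19 nephron progenitor genes, Crym being left out. Cell 27 had all 15 endothelial genes in the table. On the other side of the boundary, cell 25 combined Foxd1 with 14 of 15 ureteric bud genes in the table. Both counts are favoured by the table, which keeps any gene above 3 RPKM in at least 1 cell.

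**Figure D1:**
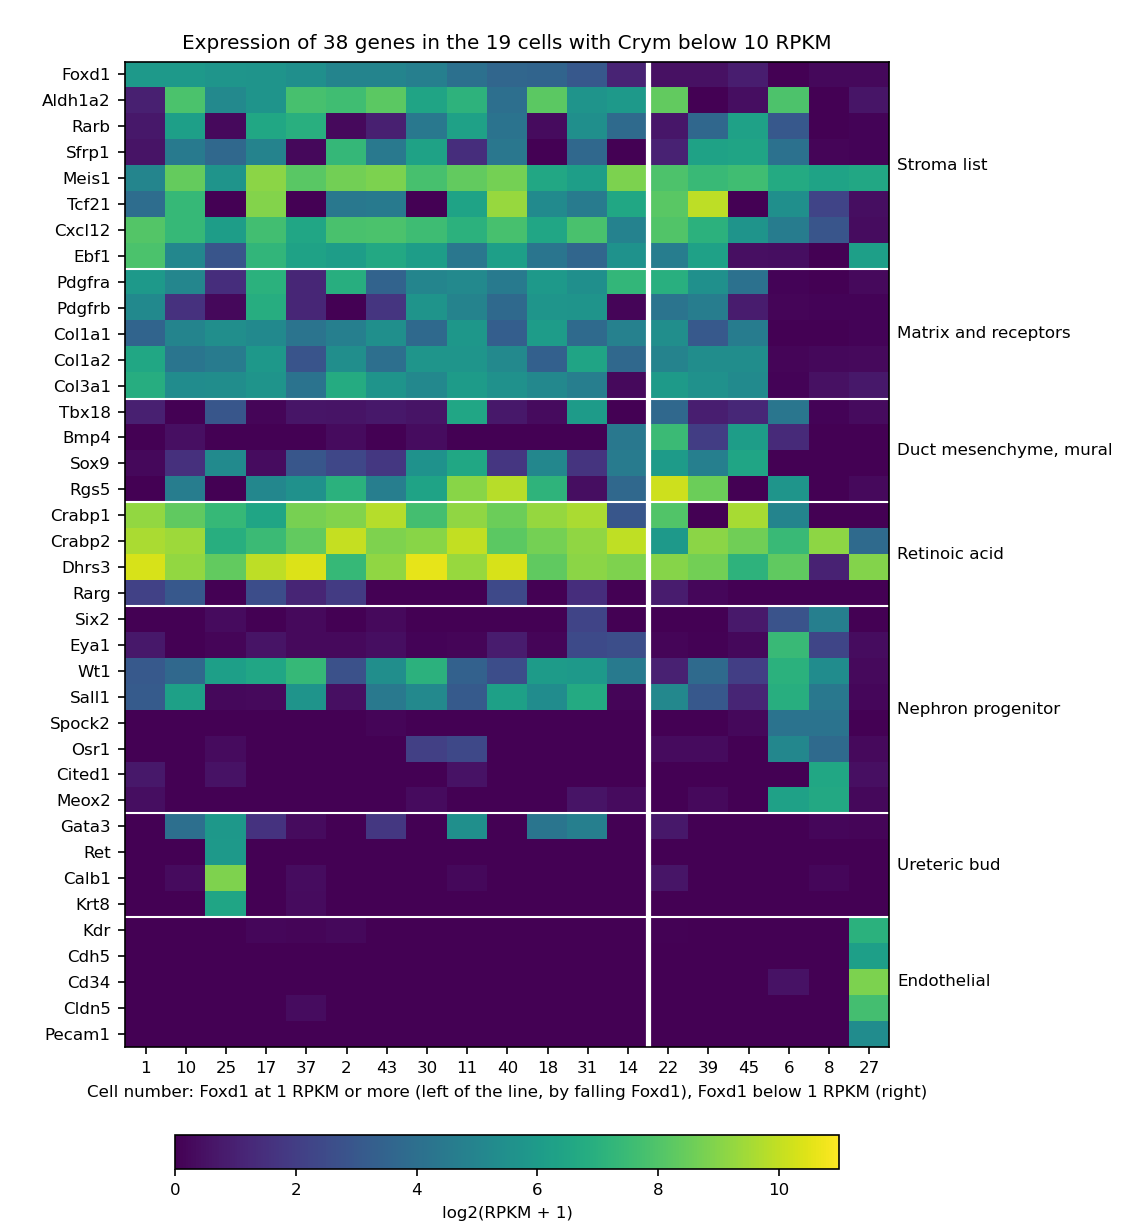
Expression of 38 genes (rows) in the 19 cells with Crym below 10 RPKM (columns), as log2(RPKM + 1). Foxd1-positive cells stand left of the white line by falling Foxd1 and Foxd1-negative cells right of it. Pdgfra, Col1a1 and Col1a2 run through the left block and cells 22, 39 and 45, while several stroma genes vary from cell to cell in both classes. Nephron progenitor genes stand out in cells 6 and 8, ureteric bud genes in cell 25 and endothelial genes in cell 27.

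Across the genome, few genes separated the 2 classes. A gene was counted as higher or lower in the Foxd1-positive cells where the share of cells with it differed by at least 50 percentage points and its mean log2(RPKM + 1) by at least 1 in the same direction. Of 9303 genes found in at least 3 of the 19 cells, 201 were higher (2.16%) and 87 were lower (0.935%), leaving Foxd1 and Crym out. Single Foxd1-negative cells moved these lists: without cell 27, 124 of the 201 still met the rule, and without cell 22, 46 of the 87 did. The median difference over these genes was 0.15 on the log2 scale, and 56.2% of them lay above 0. Differences on this scale understate those of low genes. At shares of 2.16% and 0.935%, a gene list of 25 members or fewer can hold none without differing from all genes.

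The cortical stroma list showed Aldh1a2 and Ebf1 as the members higher by this rule, 2 of the 12 members examined, with none lower. Neither met the rule where a gene counted as found from 0.1 RPKM, and both did at 5 RPKM. Of the 12, 11 had a difference above 0 and their median difference was 1.10, against 0.15 for all genes. Leaving Foxd1 itself out, the Foxd1-positive cells had 7 to 11 of the other 13 list genes (median 9). The Foxd1-negative cells had 10 in cell 22, 9 in cell 39, 8 in cell 6, 7 in cell 45, 5 in cell 8 and 4 in cell 27. The 30 Crym-high cells had 2 to 11 (median 6). The classes overlapped: cells 22 and 39 had as many stroma genes as the middle of the Foxd1-positive class.

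Aldh1a2 (gene ID 19378, mm9 chr9:71063596-71144050), which makes retinoic acid, was found in 12 of 13 Foxd1-positive cells (interval 64.0 to 99.8%) and 2 of 6 Foxd1-negative cells (4.33 to 77.7%). It ranged from 15.0 to 299 RPKM in those 12 cells and was 0.961 in cell 1, the cell with the highest Foxd1. Among the Foxd1-negative cells it was 325 RPKM in cell 22 and 244 in cell 6, and at most 0.532 in the other 4. The Foxd1-negative cells thus lay either near the top of the Foxd1-positive range or below it. The mean log2(RPKM + 1) was 6.21 ± 2.05 (SD, 13 cells) against 2.88 ± 4.08 (6 cells).

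Ebf1 (gene ID 13591, mm9 chr11:44431636-44818674), a helix-loop-helix transcription factor, was found in all 13 Foxd1-positive cells, at 6.58 RPKM in cell 25 up to 236 in cell 1 (median 68.2). It was found in 3 of 6 Foxd1-negative cells, at 77.7 RPKM in cell 39, 71.9 in cell 27 and 24.4 in cell 22, and was at most 0.373 in cells 6, 8 and 45. The mean log2 level was 5.57 ± 1.44 (SD) against 3.00 ± 3.04. In the Crym-high cells it was found in 8 of 30. Without any 1 of cells 6, 8 and 45 the share in Foxd1-negative cells was 3 of 5 and Ebf1 did not meet the rule. Ebf1 was therefore as high in the endothelial-like cell 27 as in the median Foxd1-positive cell.

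Meis1, Fat4 and Cxcl12 did not meet the rule, since 5 or 6 of the 6 Foxd1-negative cells had each of them. Meis1, a homeobox gene, was 31.2 to 536 RPKM in Foxd1-positive cells (median 331) and 82.0 to 245 in Foxd1-negative cells (median 139). Fat4, a protocadherin through which stroma signals to the cap mesenchyme, was found in 11 of 13 and 6 of 6 cells. Cxcl12, a chemokine gene, was 28.3 to 266 RPKM in Foxd1-positive cells (median 190). In the Foxd1-negative cells Cxcl12 was 256 RPKM in cell 22, 133 in cell 39, 50.5 in cell 45, 23.2 in cell 6, 6.39 in cell 8 and 0.280 in cell 27, so that only cells 22, 39 and 45 reached the Foxd1-positive range. The log2 difference of Cxcl12 was 2.40, while the shares of cells were 13 of 13 and 5 of 6.

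Other stroma list members varied inside the Foxd1-positive class. Tcf21, a helix-loop-helix factor of kidney stroma, was found in 10 of 13 Foxd1-positive cells, from 14.2 RPKM in cell 1 to 640 in cell 40, and listed at 0 in cells 25, 30 and 37. Cell 39, a Foxd1-negative cell, had the highest Tcf21 of the 19, at 954 RPKM. Rarb, a retinoic acid receptor gene, was found in 8 of 13 and 3 of 6 cells, and Sfrp1, a secreted Wnt inhibitor gene, in 9 and 4. Ecm1 was found in 7 and 2 cells. Ntn1, the gene for the guidance cue netrin-1, was found in Foxd1-positive cells 17, 25, 31 and 37 and in 0 of 6 Foxd1-negative cells, a count that allows at most 50%. Dcn was found in cell 37, and in the Foxd1-negative cells 22 and 39 at 55.3 and 325 RPKM.

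The broad mesenchyme list, with growth factor receptors and matrix genes, had 3 higher members of 15 examined (Pdgfra, Col1a1 and Col1a2) and none lower. Of the 15, 14 lay above 0, with a median difference of 1.08. All Foxd1-positive cells had 7 to 13 of the 18 genes in the table, with 11 at the median. The Foxd1-negative cells fell into separate ranges, with 12 in cell 22, 11 in cells 39 and 45, 6 in cell 6 and 4 in cells 8 and 27.

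Pdgfra (gene ID 18595, mm9 chr5:75548316-75594229), the receptor for PDGF-A, was found in all 13 Foxd1-positive cells. It was highest in cell 14 at 153 RPKM, cell 17 at 131 and cell 2 at 118. It was between 10.3 and 61.7 RPKM in 8 further cells and close to the threshold in cell 25 (1.68) and cell 37 (1.29). Among Foxd1-negative cells it was 120 RPKM in cell 22, 45.1 in cell 39 and 16.0 in cell 45, and at most 0.224 in cells 6, 8 and 27. The mean log2 level was 4.95 ± 1.93 (SD, 13 cells) against 2.82 ± 3.08 (6 cells), with 10 of 30 Crym-high cells having the gene.

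Type I collagen followed the same cells. Col1a1 (mm9 chr11:94797584-94813170) was 8.62 to 66.3 RPKM in all 13 Foxd1-positive cells (median 27.6). It was 42.3 RPKM in cell 22, 23.7 in cell 45 and 7.30 in cell 39, listed at 0 in cells 6 and 8 and 0.0854 in cell 27; cells 22 and 45 lay inside the Foxd1-positive range and cell 39 just below it. Col1a2 was 6.31 to 92.1 RPKM in the 13 cells (median 34.9), 40.9 in cell 39, 40.8 in cell 45 and 29.6 in cell 22, and at most 0.200 in the other 3. Type III collagen, Col3a1, was found in 12 of 13 cells, all but cell 14, and in cells 22, 39 and 45. The receptor gene Pdgfrb was found in 10 of 13 and 2 of 6 cells (22 and 39). Vimentin (Vim) and Sparc were found in all 19 cells.

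Cells 6, 8 and 27 were below 1 RPKM for Pdgfra, Pdgfrb, Col1a1, Col1a2 and Col3a1. For Pdgfrb, cell 45 and Foxd1-positive cells 2, 14 and 25 were below it as well, and for Col3a1 cell 14 was. With detection at 0.1 RPKM, Col1a1 met the rule while Pdgfra and Col1a2 did not, and at 5 RPKM Pdgfra did not. Without cells 25 and 27, 0 broad mesenchyme genes were higher by the same rule, since the share of Foxd1-negative cells with Pdgfra, Col1a1 and Col1a2 rose to 3 of 5. Leaving out any 1 of cells 6, 8 and 27 gave the same share of 3 of 5. With cells between 1 and 5 RPKM of Foxd1 (cell 14) left out, 5 were higher, Pdgfrb and Col3a1 being added.

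**Figure D2:**
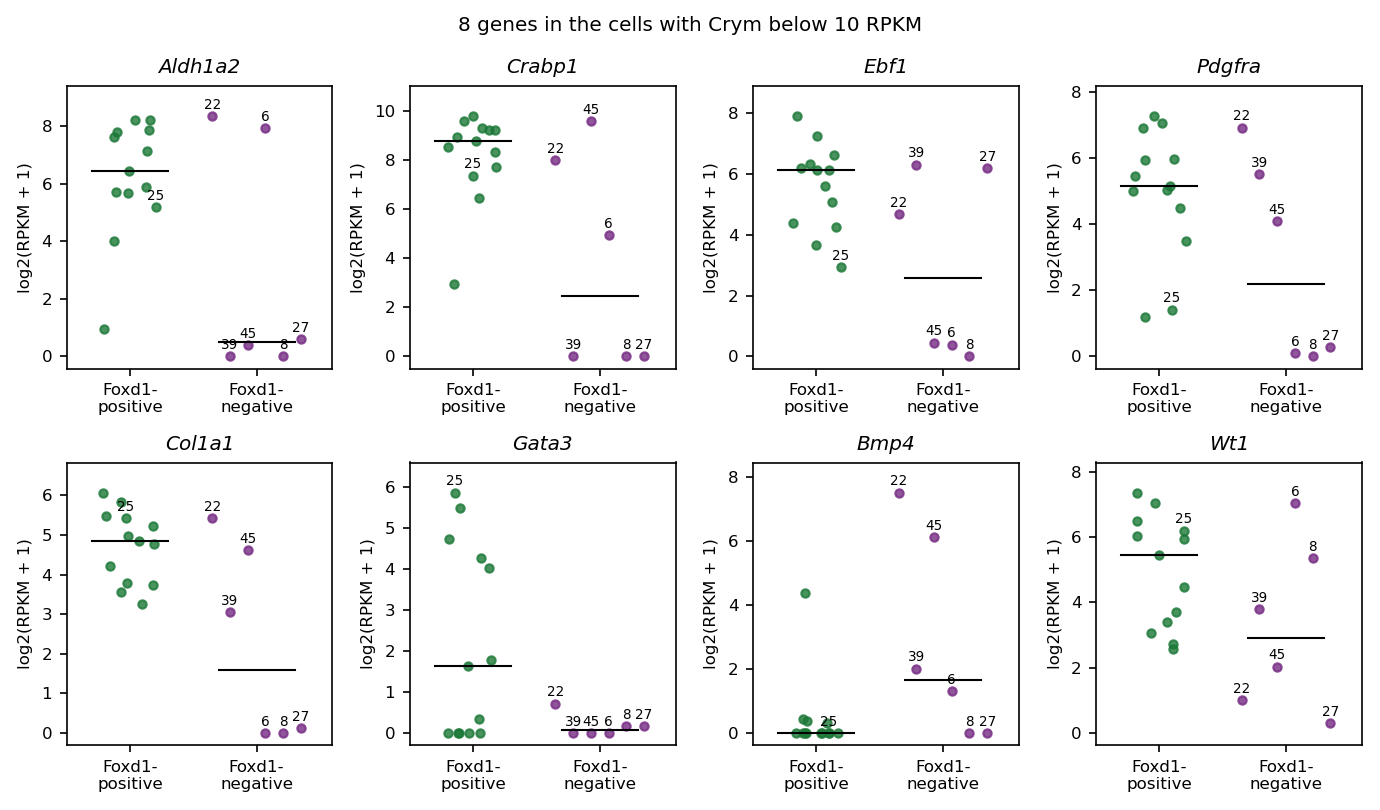
Levels of 8 genes as log2(RPKM + 1), each point 1 cell, lines at the class medians, with Foxd1-negative cells and cell 25 numbered. Aldh1a2, Crabp1, Ebf1, Pdgfra and Col1a1 were present in nearly all of the 13 Foxd1-positive cells and split the 6 Foxd1-negative cells into a high and a low set whose members differ from gene to gene.

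Genes of the retinoic acid pathway were next. This pathway has binding proteins that carry retinoids, enzymes that make or break down retinoic acid and nuclear receptors that respond to it. Of 12 members examined, 2 were higher in Foxd1-positive cells (Aldh1a2 and Crabp1) and 0 lower, with 9 above 0 and a median difference of 1.11. Crabp1 (mm9 chr9:54612615-54620916), a retinoic acid binding protein gene, was 6.68 RPKM in cell 14, 86.6 in cell 17 and 163 to 875 in the other 11 Foxd1-positive cells. In Foxd1-negative cells it was 751 RPKM in cell 45, 255 in cell 22 and 29.8 in cell 6, and listed at 0 in cells 8, 27 and 39. The mean log2 level was 8.15 ± 1.83 (SD) against 3.75 ± 4.37. Of the Crym-high cells, 13 of 30 had it. Without cells 25 and 27 the log2 difference was 3.72 and Crabp1 no longer met the rule, as 3 of 5 Foxd1-negative cells had it, the same share as without cell 8 or cell 39 alone.

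Crabp2, the other retinoic acid binding protein gene, was found in all 19 cells. Dhrs3, which reduces retinaldehyde and is itself a target of retinoic acid, was 167 to 1556 RPKM in Foxd1-positive cells (median 586). In Foxd1-negative cells it was 137 to 516 RPKM in 5 cells and 1.08 in cell 8. Rdh10, which makes retinaldehyde, went the other way on average: its mean log2 level was 2.56 ± 2.66 (SD) in Foxd1-positive and 4.05 ± 3.22 in Foxd1-negative cells, a difference below the spread between cells. Rarg, a receptor gene, was found in 7 of 13 Foxd1-positive cells at 1.20 to 7.14 RPKM and in 0 of 6 Foxd1-negative cells (share up to 50%). Its log2 difference of 0.95 was just short of the rule. Aldh1a1 and Aldh1a3, the other retinoic acid synthesis genes, were found in cell 25 alone of the 19, at 34.0 and 80.2 RPKM. Cyp26b1, which degrades retinoic acid, was found in cell 27 alone of the 19, at 29.9 RPKM.

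Cells 22, 39 and 45 each lacked a different set of stroma genes. Cell 22 had Aldh1a2, Crabp1, Ebf1, Tcf21 (288 RPKM) and Cxcl12, but Wt1 at 1.01 RPKM and Rarb at 0.581. Cell 39 had Ebf1, Tcf21, Cxcl12 and Sfrp1 (80.3 RPKM), with Aldh1a2 and Crabp1 listed at 0. Cell 45 had Crabp1, Sfrp1 (85.0 RPKM) and Rarb (77.5 RPKM), with Tcf21 listed at 0 and Aldh1a2 and Ebf1 below 1 RPKM. No stroma list gene other than Foxd1 separated all 3 from the Foxd1-positive class. Of genes found in no other of the 19 cells, cell 22 had 94, cell 39 had 58 and cell 45 had 48, within the 48 to 97 of the cells other than 25 and 27. In cell 22 these included Tm4sf1, a membrane protein gene, at 92.3 RPKM. In cell 39 they were led by the peptidase gene Cpa4 at 225 RPKM and included the neuropeptide Y gene Npy at 86.4. In cell 45 they were led by Inhba, which encodes an activin subunit, at 196 RPKM, and included Mab21l1 at 82.7. Tm4sf1, Cpa4, Inhba and Mab21l1 were also found in none of the 30 Crym-high cells.

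The BMP ligand genes Bmp4 and Bmp5 were present in all 3 of these cells. Both are among genes picked for being above 3 RPKM in cells 22, 39 and 45 and found in at most 2 Foxd1-positive cells. Their presence in the 3 cells was thus fixed by the choice, and genes outside this family passed it too. Bmp4, a ligand made by mesenchyme around the ureteric duct, was the member of the duct and ureter mesenchyme list lower in Foxd1-positive cells, 1 of 9 examined, with none higher, and it did not meet the rule with detection at 0.1 or at 5 RPKM. It was 181 RPKM in cell 22, 68.8 in cell 45, 3.04 in cell 39 and 1.50 in cell 6, listed at 0 in cells 8 and 27, and found in 1 of 13 Foxd1-positive cells, cell 14 at 19.9 RPKM (interval 0.195 to 36.0%). The mean log2 level was 0.42 ± 1.20 (SD) in Foxd1-positive and 2.83 ± 3.22 in Foxd1-negative cells, and 5 of 30 Crym-high cells had it. Bmp5, singled out after its values were seen, was 79.3 RPKM in cell 39, 22.1 in cell 45 and 9.15 in cell 22. It was listed at 0 in cells 6, 8 and 27. Of the 13 Foxd1-positive cells, 2 had Bmp5: cell 37 at 196 RPKM, the highest of the 19 cells, and cell 31 at 1.20. Of the Crym-high cells, 1 of 30 had it. Cell 14, the Foxd1-positive cell nearest the boundary, did not share it, at 0.218 RPKM.

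The rest of the duct and ureter mesenchyme list was uneven. Sox9, a transcription factor gene, was found in 11 of 13 Foxd1-positive cells (median 4.11 RPKM) and was 87.3 RPKM in cell 45, 64.2 in cell 22 and 25.6 in cell 39. It was listed at 0 in cells 6, 8 and 27. Tbx18, which marks ureter mesenchyme, was 90.2 RPKM in cell 11, 65.4 in cell 31 and 6.75 in cell 25 of the Foxd1-positive cells. Among Foxd1-negative cells it was 18.9 RPKM in cell 6, 12.2 in cell 22 and 1.37 in cell 45. Nr2f1, a nuclear receptor gene, was 22.4 to 290 RPKM in Foxd1-positive cells (median 81.3). In Foxd1-negative cells Nr2f1 was 84.9 RPKM in cell 8, 47.4 in cell 45 and 1.72 to 9.69 in cells 6, 22, 27 and 39. All 19 cells had Nr2f1, so the gene differed in level and not in the share of cells, with a log2 difference of 2.92.

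Of the mural and smooth muscle list, 5 members were examined and none was higher or lower. Rgs5, a pericyte gene, was found in 10 of 13 Foxd1-positive cells, up to 913 RPKM in cell 40 and 534 in cell 11. It was 1147 RPKM in cell 22, 369 in cell 39 and 51.8 in cell 6. Acta2, smooth muscle actin, was found in cell 22 alone of the 19 cells, at 16.0 RPKM. Myl9 was found in 6 of 13 and 3 of 6 cells. The summed level of the list was 7.38 to 939.6 RPKM in Foxd1-positive and 33.7 to 1433 RPKM in Foxd1-negative cells.

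Cells 6 and 8 were nephron progenitor-like by their markers. Leaving Crym out, they had 12 and 13 of the other 19 nephron progenitor genes, against 2 to 7 (median 5) in Foxd1-positive cells, 0 to 5 in the other Foxd1-negative cells and 4 to 16 (median 11) in Crym-high cells. Six2 was 25.9 RPKM in cell 8 and 5.94 in cell 6. Eya1, a coactivator needed for the first step of kidney formation, was 177 RPKM in cell 6 and 3.91 in cell 8. Osr1, an early regulator of intermediate mesoderm, was 33.5 and 13.0 RPKM in cells 6 and 8. The proteoglycan gene Spock2 was 17.4 and 17.0 RPKM. Both cells thus had these 4 genes, of which Spock2 was found in no Foxd1-positive cell (0 of 13, up to 23.1%) and in 23 of 30 Crym-high cells.

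The homeobox gene Meox2, listed with broad mesenchyme, followed the same 2 cells, at 76.7 RPKM in cell 6 and 97.6 in cell 8. It was found in 0 of 13 Foxd1-positive cells (up to 23.1%), in no other Foxd1-negative cell and in 20 of 30 Crym-high cells. Rspo1, a Wnt pathway agonist gene, was 35.4 RPKM in cell 8 and 3.25 in cell 6. Cells 6 and 8 also differed from each other. Cited1, which marks the least committed nephron progenitors, was 94.0 RPKM in cell 8 and listed at 0 in cell 6. Itga8 was found in cell 8 (3.04 RPKM) and Gdnf, the ligand of Ret, in cell 6 (39.3 RPKM). Cell 6 had 5 early nephron genes, with Pax8 at 38.5 RPKM, Bmp7 at 27.1, Ccnd1 at 5.45, Jag1 at 3.71 and Wnt4 at 2.71, and it also had Aldh1a2 and Tbx18. Foxd1-positive cell 25 had 5 early nephron genes as well, and its summed level of that list was 263 RPKM against 77.4 in cell 6. Crym was 2.74 and 3.32 RPKM in cells 6 and 8, within the range of the other Foxd1-negative cells. Among genes found in 1 of the 19 cells only, Heyl, a Notch target gene, stood at 143 RPKM in cell 8 and in 6 of 30 Crym-high cells, and Hoxb1 at 63.3 RPKM in cell 6 and in 14 of 30.

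Between the classes, of 11 nephron progenitor genes examined, 0 were higher and 0 lower, with a median difference of -0.19 and 4 of 11 above 0. A list this short can hold none, as 2.16% of all genes were higher and 0.935% lower. Per cell, cells 6 and 8 lay above the range of the Foxd1-positive cells, cell 27 below it, and cells 22, 39 and 45 inside it. Wt1, required for early kidney formation, was 4.97 to 164 RPKM in all 13 Foxd1-positive cells (median 42.9). It was 130 RPKM in cell 6 and 40.3 in cell 8, and 12.8, 3.10, 1.01 and 0.226 RPKM in cells 39, 45, 22 and 27. Sall1 was found in 9 of 13 and 5 of 6 cells, and the cadherin gene Cdh11 in 12 of 13 (all but cell 25) and 5 of 6 (all but cell 27). The nephron progenitor genes Pax2 and Uncx were found in none of the 19 cells.

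Cell 27 was endothelial-like. Of 18 endothelial list genes, 15 were in the table, which keeps genes above 3 RPKM in at least 1 cell. Cell 27 had all 15, where the other 18 cells had 0 to 2. A gene high in cell 27 alone enters the table through it, as Esam did, so this filter favours a full count. Egfl7 was 337 RPKM, Cdh5, the gene for vascular endothelial cadherin, 73.4, Pecam1 40.4, Emcn 94.9, Eng 52.4, Sox18 33.4, Tek 10.0 and Erg 3.04 RPKM. Pecam1, Cdh5, Tek, Sox18 and Erg were listed at 0 in the other 18 cells. The genes found in this cell alone of the 19, ranked by level, were led by Cd93 (1004 RPKM), Ecscr (893) and Cd34 (452), which are endothelial surface genes. Rasgrp3 (353), Mcam (315), Gimap4 (308), Esam (233) and Slc29a1 (217) came next. In all, 151 genes were found in cell 27 alone of the 19 cells, against 48 to 97 in each of the other 17 cells apart from cell 25.

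Several stroma and kidney genes were low in cell 27, with Ebf1 (71.9 RPKM) and Fat4 (7.04) among those that were not. Wt1 was 0.226 RPKM, Sall1 0.153, Cxcl12 0.280 and Hoxc10 0.390, and Crabp1 and Six2 were listed at 0. Hoxa10 was present at 21.2 RPKM, Meis1 at 96.3 and Nr2f2 at 19.3 RPKM, the lowest Nr2f2 of the 19. It also had 2 macrophage list genes, Laptm5 at 46.2 and Fcer1g at 41.1 RPKM. The third macrophage gene in the table, Cd68, was listed at 0. The Notch ligand gene Dll1 was found in cell 27 alone of all 49 cells, at 39.9 RPKM.

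Cell 25 fell in the Foxd1-positive class, with Foxd1 at 51.7 RPKM. It had 14 of the 15 ureteric bud genes in the table, Krt19 being the exception, where the other 12 Foxd1-positive cells had 0 to 3 and the Foxd1-negative cells 0 or 1. The summed level of the list was 1097 RPKM in cell 25, 0 to 224 in the other Foxd1-positive cells and 0.367 to 128 in the Foxd1-negative cells. Calb1 was 473 RPKM, Krt8 88.0, Ret 59.6 and Krt18 48.3. Emx2 (28.4 RPKM), a transcription factor gene, and Wnt9b (24.4), a signal of the bud epithelium, together with Ret and Cdh1 (4.76), were found in cell 25 and in none of the other 48 cells. Emx2, Wnt9b, Ret and Cdh1 are thus in the table through cell 25 itself, which favours its count of 14. Mal2 (1814 RPKM) and Cldn6 (468), genes of epithelial membranes and tight junctions, led the genes found in cell 25 alone of the 19, before Tubb4a (234), Spink8 (148) and Grb7 (106).

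Stroma genes in cell 25 were mixed. Col1a1 was 41.7 RPKM, Col3a1 41.4, Crabp1 163 and Aldh1a2 35.2, all inside the range of the other Foxd1-positive cells. Pdgfra (1.68 RPKM), Ebf1 (6.58), Nr2f2 (93.0) and Crabp2 (116) were the lowest or next to lowest of the class. Tcf21 and Rgs5 were listed at 0, and Sall1 (0.191) and Cdh11 (0.273) were below the threshold. Cell 25 had 6330 genes at 1 RPKM or more, the most of the 19 cells, at a relative depth of 1.08, and 221 genes of its own. The submitters looked at each capture chamber under a microscope, per the labels' protocols. Whether the values of cell 25 come from more than 1 cell was not tested.

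**Figure D3:**
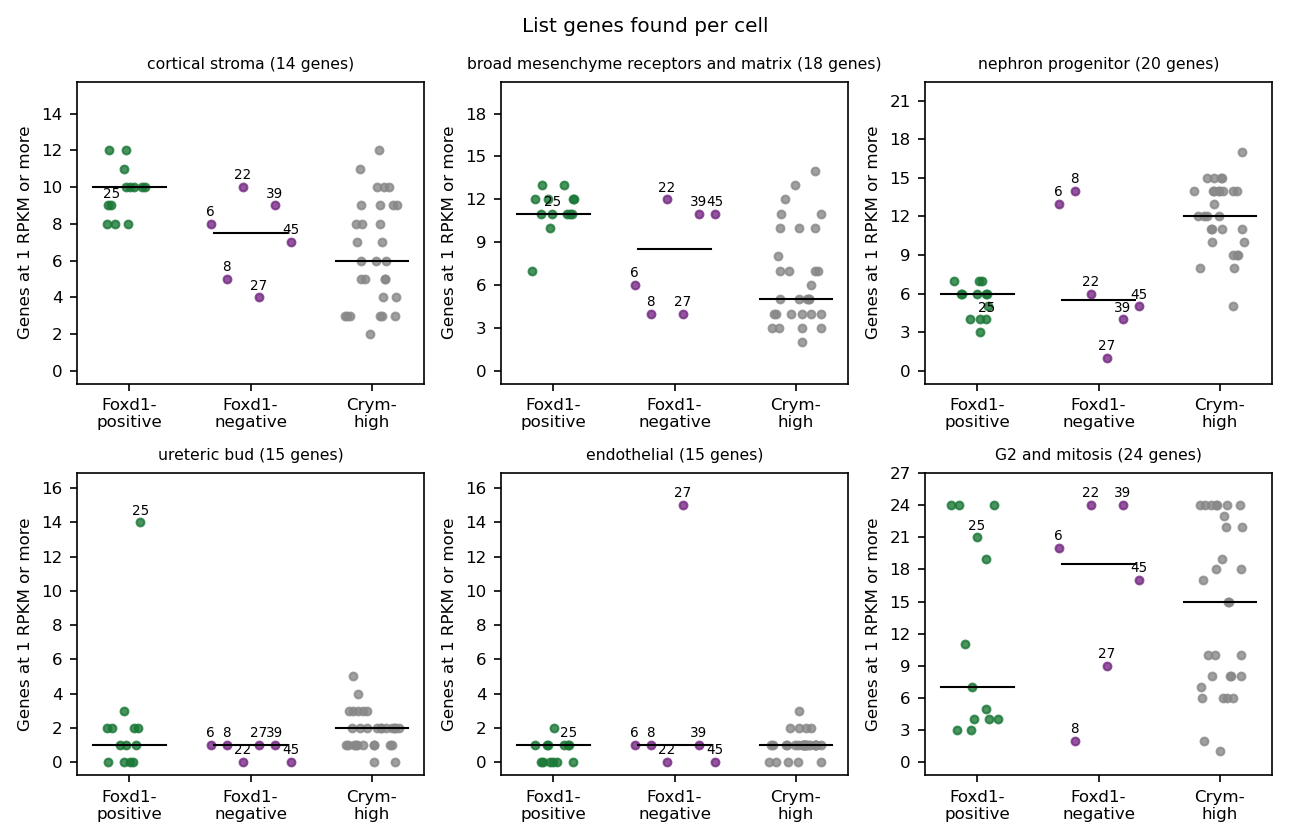
Number of genes of 6 lists at 1 RPKM or more in each cell, by class, with the size of each list in the panel title, lines at medians, and Foxd1-negative cells and cell 25 numbered. Cell 25 has 14 ureteric bud genes, cell 27 has 15 endothelial genes, and cells 6 and 8 have 13 and 14 nephron progenitor genes, beside a median of 12 in the 30 Crym-high cells. The nephron progenitor counts include Crym and the cortical stroma counts include Foxd1, the genes that chose the cells. Without Crym, cells 6 and 8 have 12 and 13 nephron progenitor genes, beside a median of 11.

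Gata3 was the ureteric bud gene that met the rule, 1 of 3 examined. Other members of the list were also found outside cell 25, among them Etv5 at 224 RPKM in cell 2 and 128 in cell 6, and Wnt11 at 21.3 in cell 30. Gata3, a zinc finger transcription factor gene (mm9 chr2:9778705-9800227), is known from the nephric duct and the bud. It was 57.5 RPKM in cell 25, 43.7 in cell 11, 25.6 in cell 31, 18.4 in cell 18, 15.4 in cell 10, 2.44 in cell 43 and 2.08 in cell 17. It was at most 0.266 RPKM in the other 6 Foxd1-positive cells, and at most 0.646 in the Foxd1-negative cells. Gata3 was thus found in 7 of 13 Foxd1-positive cells (interval 25.1 to 80.8%), in 0 of 6 Foxd1-negative cells (up to 50%) and in 3 of 30 Crym-high cells. Its mean log2 level was 2.16 ± 2.35 (SD) against 0.18 ± 0.28. Gata3 did not meet the rule with detection at 0.1 or at 5 RPKM. Cells 10, 11, 17, 31 and 43 had 1 or 2 ureteric bud genes in all, and cell 18 had 3, with Epcam and Etv5.

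The Foxd1-positive cells nearest the boundary differed from the rest in some genes. Cell 14 had Pdgfra at 153 RPKM, Meis1 at 451 and Aldh1a2 at 58.3, but Col3a1 at 0.207 and Crabp1 at 6.68, the lowest of the class for both. It also had Bmp4 and, at 5.33 RPKM, the highest Eya1 of the class. The immediate early genes Fos and Egr1, which respond to stress and dissociation, stood at 222 and 308 RPKM in cell 14. Cell 31, with Foxd1 at 7.12 RPKM, had Six2 at 3.73 and Eya1 at 4.47 RPKM beside Tbx18, Gata3 and Crabp1 (772 RPKM), and 11 of the 13 other stroma genes. It was the single Foxd1-positive cell with Six2. The cell with the highest Foxd1, cell 1, had Ebf1 at 236 and Cxcl12 at 266 RPKM, the highest of the class, and Aldh1a2 below 1 RPKM.

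Genes outside the lists gave the widest differences in the share of cells. Sncg, the gene for gamma-synuclein (mm9 chr14:35183460-35187855), was found in 10 of 13 Foxd1-positive cells (interval 46.2 to 95%), at 2.05 RPKM in cell 25 up to 275 in cell 43, and listed at 0 in all 6 Foxd1-negative cells. Of the Crym-high cells, 5 of 30 had it. Nek6, a kinase gene, was likewise found in 10 and 0 cells. Sqstm1, an autophagy receptor gene, was found in 12 Foxd1-positive cells and in 1 Foxd1-negative cell, cell 22 at 85.4 RPKM. Ankfy1, an endosomal protein gene, and the kinesin gene Kif1b were also found in 12 and 1 cells. Gas8, Phtf2, Wdr24, Phkb and Flii were each found in 9 and 0 cells. Over these 10 genes the difference in mean log2 level ran from 2.41 for Kif1b to 4.62 for Sncg. Sncg was the least common of them in the Crym-high cells. There Kif1b was found in 22 of 30 cells, Sqstm1 in 20, and Ankfy1 and Phkb in 19 each. With 0.1 RPKM as the detection threshold, Sqstm1, Ankfy1, Kif1b, Gas8, Phkb and Flii did not meet the rule, and at 5 RPKM Flii did not.

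On the lower side, Pip5k1c, a lipid kinase gene, and Ttll4, a tubulin glutamylase gene, were found in 2 of 13 Foxd1-positive and all 6 Foxd1-negative cells. Pip5k1c was 3.42 to 45.5 RPKM in the 6 cells, with a log2 difference of -3.06. Slc25a10, a mitochondrial carrier gene, and Hira, a histone chaperone gene, were found in 3 and 6 cells. Rab4b, an endosomal GTPase gene, was found in 4 and 6 cells, with a log2 difference of -4.09, at 16.0 to 114 RPKM in Foxd1-negative cells. Hscb and Ubr2 were also found in 4 and 6 cells, Blzf1 and Zadh2 in 2 and 5, and Sssca1 in 0 and 4. Presence in all 6 Foxd1-negative cells, which differed in lineage genes, is favoured by ranking on the difference in share. It does not show a trait that these cells have in common. Some values lay near the threshold, such as Slc25a10 at 1.04 RPKM in cell 8 and Hira at 1.03 in cell 22. In the Crym-high cells the lower genes named here ran from 3 of 30 for Sssca1 to 18 for Ubr2. Of these 10, Pip5k1c, Slc25a10, Rab4b, Hscb, Ubr2 and Zadh2 did not meet the rule with detection at 0.1 RPKM, and Ttll4, Slc25a10, Ubr2, Zadh2 and Sssca1 did not at 5 RPKM. None of the named genes on either side is a fixed marker of kidney stroma.

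The genes whose levels followed Foxd1 most closely over the 19 cells were Mecom (Spearman correlation 0.863), Cyp2e1 (0.823), Dock11 (0.808), Phtf2 (0.755) and Chd1 (0.754). They were picked as the highest of all genes over cells that share 1 run and lane name, and the correlations are a description. Mecom, a zinc finger transcription factor gene (mm9 chr3:29850218-30446930), was found in all 13 Foxd1-positive cells at 19.4 RPKM in cell 31 up to 172 in cell 10 (median 55.0). In Foxd1-negative cells it was 19.4 RPKM in cell 45, 10.5 in cell 39, 9.52 in cell 8, 4.28 in cell 6, 0.900 in cell 27 and 0.397 in cell 22. The 2 classes met at cells 31 and 45 with 19.43 against 19.37 RPKM. Mecom missed the rule for a higher gene because 4 of 6 Foxd1-negative cells had it. Dock11 was found in 8 and 0 cells, Chd1, a chromatin remodeler gene, in 13 and 2, and Cyp2e1 in 12 and 2, at 9.49 RPKM or less. Picking genes for following Foxd1 favours such differences between classes cut by Foxd1. In the 30 Crym-high cells, Chd1 was found in 24, Cyp2e1 in 23, Mecom in 13, Dock11 in 11 and Phtf2 in 10.

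No Hox or hedgehog pathway gene met the rule, which 2.16% of all genes met as higher and 0.935% as lower. Lists this short can hold none at those shares, so the counts of 0 do not set them apart. Of 25 Hox genes examined, 0 were higher and 0 lower, with a median difference of 0.16 against 0.15 for all genes. Hoxa10 was found in all 19 cells, at medians of 43.3 and 51.5 RPKM, and Hoxc10 in 13 of 13 and 5 of 6, the exception being cell 27. Of 7 hedgehog pathway genes examined, 0 were higher or lower, with a median of 0.39. Gli1, a target of hedgehog signalling, was 25.7 RPKM in cell 22 and Ptch1, its receptor, 27.7, the highest Ptch1 of the 19, with 18.8 RPKM in cell 45.

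No cell cycle gene met the rule. Of 24 G2 and mitosis genes examined, 23 had a lower mean log2 level in Foxd1-positive cells, with a median difference of -0.96. Foxd1-positive cells 18, 37 and 40 had all 24 of these genes, cell 25 had 21 and cell 30 had 19, while the other 8 had 3 to 11. Foxd1-negative cells 22 and 39 had all 24, cell 6 had 20, cell 45 had 17, cell 27 had 9 and cell 8 had 2. The summed level was 31.1 to 7004 RPKM in Foxd1-positive and 7.65 to 6151 RPKM in Foxd1-negative cells, so the ranges of the classes overlapped. Mitosis genes were thus at 17 or more in 4 of 6 Foxd1-negative and 5 of 13 Foxd1-positive cells. Their part in the differences given above was not tested. Of 19 DNA replication genes, 0 were higher or lower, with a median difference of -0.39.

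Markers of other cell types were scarce. Of 8 immediate early genes examined, 0 were higher or lower, and of 12 housekeeping genes none, with a median difference of 0.08. No macrophage, skeletal muscle or gonad gene was found in enough cells to be examined. Of the 7 neural genes in the table, the Foxd1-positive cells had 0 to 2. Cell 45 had 3, with Nefl at 17.1 RPKM and Elavl4 and Stmn2 at 1.52 and 1.44. Tubb3 reached 278 RPKM in a Foxd1-positive cell and was listed at 0 in the 6 Foxd1-negative cells. The erythroid gene Alas2 was found in cells 11, 14 and 31.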

How the data were processed

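Cells were captured on a Fluidigm C1 chip, their RNA amplified with SMARTer chemistry and libraries made with Nextera XT, per the labels' protocols. Neither strand nor molecular identifiers are kept, so a gene and an overlapping antisense gene share reads. The deposited values are RPKM; per the file headers, the authors computed them. The submitters' processing notes name TopHat 1.4.1, DESeq and mm9. Not given in the sources used here were the read counter, the annotation and the base at which start coordinates begin; coordinates are as deposited. The table holds the 13093 genes above 3 RPKM in at least 1 cell; list genes outside it are not analysed here.

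The 20 gene lists, the boundaries and the cells were chosen with earlier results of these data known. Genes named outside the lists are among the 12 higher and 12 lower with the widest difference in share (predicted genes and short noncoding RNA left unnamed), the 8 highest found in 1 cell alone, and the 5 most like Foxd1; Bmp5 and single values of list genes were chosen after values were seen. Means are of log2(RPKM + 1), a pseudocount of 1 (pandas 2.3.3, NumPy 2.4.6), and intervals are exact at 95% (SciPy 1.17.1). The limit for a count of 0 is 3 cells of the class. Relative depth came from the steps between values below 8 RPKM. No cell was filtered and doublets were not called by software. The depth estimate and the rule for higher and lower genes were tested on simulated data. Alternatives changed the detection threshold, pseudocount, low-value filter, boundaries and cells included. Some list genes were counted with their list but are not reported here by name.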

Additional observations from a re-analysis of the deposited data

Results flagged for a closer look

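Among the 6 Foxd1-negative cells, 22 measures per cell (genes found, relative depth and the counts of 20 gene lists) were examined for a cell lying far from the others, by Dixon's criterion at 95%, and 4 had one. The 95% level holds for continuous, normally spread values. Most of these measures are small counts with ties, so the share flagged by chance is not known. A list at 0 in 5 of the cells is flagged by any other count, as for the macrophage genes. The counts are also not independent. The criterion was applied to single cells of 1 sample as a description. The endothelial genes of cell 27 were known from earlier results of these data, so that entry adds nothing to the values given above. Cell 27 had 15 endothelial genes, against 0 or 1 in the other 5 cells, and 2 macrophage genes, against 0. Cell 6 had 5 early nephron genes, against 0 or 1, though Foxd1-positive cell 25 had 5 too. Cell 45 had 3 neural genes, 2 of them (Elavl4 and Stmn2) just above 1 RPKM, against 0 or 1. The class of 13 Foxd1-positive cells is too large for this criterion, and cell 25 was therefore not examined by it.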

How the results depend on the processing

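No gene that met the rule changed direction. At a detection threshold of 0.1 RPKM, 1 cortical stroma gene (neither Aldh1a2 nor Ebf1), 1 broad mesenchyme gene (Col1a1) and 0 ureteric bud genes were higher and 1 nephron progenitor gene was lower; the median per cell was 10 cortical stroma and 2 ureteric bud genes in Foxd1-negative cells and 9 nephron progenitor genes in Foxd1-positive against 10 in Foxd1-negative cells, where at 1 RPKM the medians were 6 and 5.5, so the order of the classes turned. At 5 RPKM, 0 ureteric bud genes were higher, and Foxd1-positive cells had medians of 4 nephron progenitor and 0 endothelial genes. The medians given here count Foxd1 and Crym with their lists. Of the 201 higher and 87 lower genes, 71 and 26 also met the rule at 0.1 RPKM, and 69 and 38 at 5 RPKM. Without cells 25 and 27, 159 genes were lower (64 of the 87 among them) and 0 broad mesenchyme genes higher; with the Foxd1 boundary at 5 RPKM, 5 were higher. A Foxd1 boundary of 0.1 RPKM left 1 Foxd1-negative cell. Leaving out 1 cell at a time gave 172 to 284 higher and 83 to 130 lower genes. Leaving out 1 Foxd1-negative cell kept 124 (cell 27) to 157 (cell 22) of the 201 higher and 46 (cell 22) to 59 (cell 27) of the 87 lower genes; leaving out 1 Foxd1-positive cell kept at least 198 and all 87. A single cell weighs more in the share of a class of 6 cells than in that of a class of 13. How much of the change this makes up was not tested. For single genes, 189 alternatives kept the call, 34 lost it and 5 gained it. Crym boundaries of 5 and 30 RPKM left the classes as they were. No paired analysis was possible because all cells form 1 group. With 6 Foxd1-negative cells of 3 profiles and no named embryos, the differences describe these cells.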
